A study of Mus musculus with 6 samples.

Results

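The genes described here were 57 mouse genes of the Wnt, BMP, FGF and hedgehog ligand families, nearly all of which encode secreted signaling proteins, together with secreted antagonists of the BMP and nodal ligands. The exceptions are Fgf11, Fgf12 and Fgf14, which encode intracellular FGF homologous factors. The genes were taken by name from a list whose rule uses no measured value, although the list was drawn up with earlier results of these data known. The list held 19 Wnt genes, 14 BMP, activin and nodal genes, 17 FGF genes, 2 hedgehog genes and 5 antagonist genes, out of 55536 annotated genes, of which 22028 are protein-coding. An anti-H3K27me3 CUT&Tag experiment had been performed on granulosa cells (GCs), the somatic cells that surround the oocyte in the ovarian follicle. Female ICR mice aged 3 weeks and primed with PMSG, a gonadotropin that drives follicle growth, received 1 intraperitoneal injection of cyclophosphamide (CTX), an alkylating chemotherapeutic agent, or of phosphate-buffered saline (PBS), and GCs were collected 6 h later. The control group and the CTX-treated group each had 3 libraries, called PBS 1 to PBS 3 and CTX 1 to CTX 3, and each library was made from the pooled GCs of 3 mice.

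H3K27me3 is the trimethylation of lysine 27 on histone H3. It is deposited by Polycomb repressive complex 2, often over CpG-rich promoters of developmental genes that a tissue keeps silent. Wnt ligands bind Frizzled receptors, BMPs and activins signal through receptor serine/threonine kinases and SMAD proteins, FGFs activate receptor tyrosine kinases, and hedgehog ligands bind Patched. In the follicle GCs make the activin and inhibin subunits encoded by Inhba and Inhbb, and Wnt4 and Bmp2 are also counted among GC products, whereas most other ligands are best known from embryonic patterning.

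A gene was called marked in a library when a merged peak of that library overlapped the sequence within 2000 bp of any of its annotated transcription start sites (TSSs) by at least 1 bp. The called length inside this window is the covered length in bp, and it depends on the number of TSSs of the gene as well as on depth. The depth recovered from the peak lists was 1375 to 1957 reads per Mb of genome in the control group and 1118 to 1630 in the CTX-treated group, with 4244 to 6378 and 2916 to 4993 merged peaks. CTX 3 was the shallowest library and had the fewest peaks. Of 10 GC marker genes none was marked in any library, and of 6 oocyte markers none was. Of all protein-coding genes 88.1% were marked in no library and 3.5% in all 6, so unmarked genes were the rule. Of 5 theca and stroma markers 3 were marked (Pdgfra in all 6 libraries, Insl3 and Col1a1 in 5), with 3 of the list marked in each library except CTX 1, where 1 was. The leukocyte marker Ptprc was marked in CTX 2 and the endothelial marker Kdr in PBS 1. A promoter without the mark does not identify a cell type, and the part of other cells in the values below was not tested.

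Most ligand genes carried an H3K27me3 promoter peak in most libraries. On average fewer were marked in the CTX-treated group, and the 2 libraries with the fewest peaks there, CTX 1 and CTX 3, had the lowest counts. Marked ligand genes numbered 41 in PBS 1, 36 in PBS 2 and 39 in PBS 3, against 31 in CTX 1, 40 in CTX 2 and 24 in CTX 3. The groups overlapped, since CTX 2 had more marked genes than PBS 2 and PBS 3. The control mean was 38.7 ± 2.52 and the CTX mean 31.7 ± 8.02 (SD, n = 3 each), a difference of -7 genes. As shares, 67.8% and 55.6% of the ligand genes were marked, while 8.30% ± 1.04 and 6.02% ± 1.37 of all protein-coding genes were. At similar depth the order of the groups was not constant, because CTX 2 at 1630 reads per Mb had 40 marked genes and PBS 3 at 1595 had 39, whereas CTX 1 at 1433 had 31 and PBS 2 at 1375 had 36. When the 2916 strongest peaks of each library were used, 26, 28 and 28 ligand genes were marked in the control group and 28, 33 and 24 in the CTX-treated group, and the difference turned to 1 gene more in the CTX-treated group. It was -3.17 without CTX 3 and -11.2 without CTX 2.

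**Figure D1:**
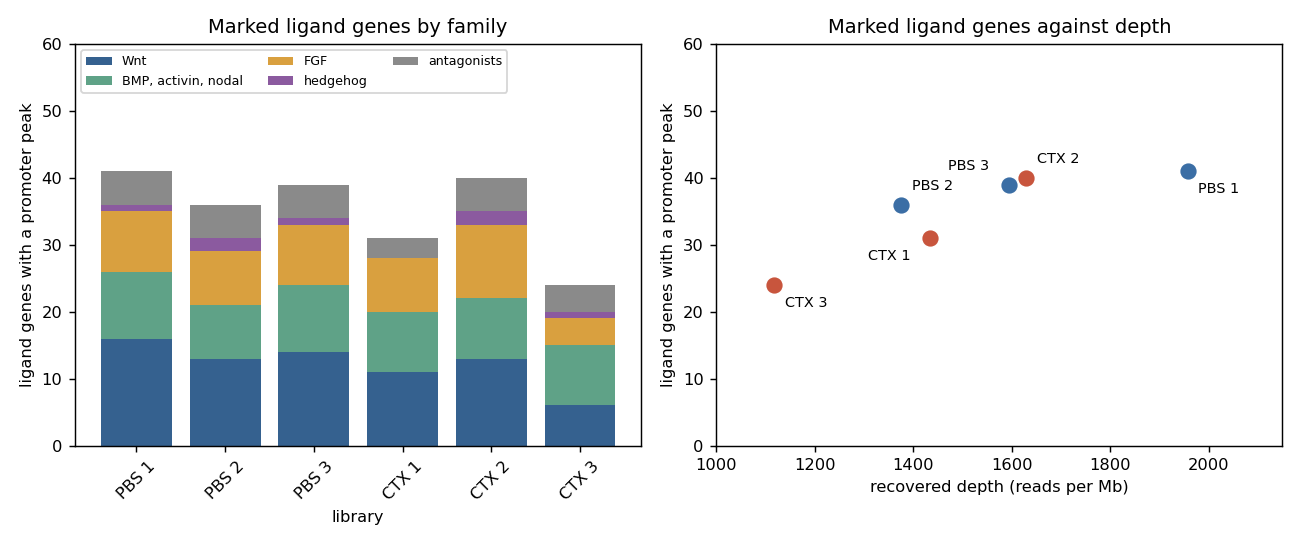
Left, ligand genes with an H3K27me3 promoter peak in each library (y axis, number of genes), stacked by family. Right, the same totals against recovered depth (x axis, reads per Mb), with the control libraries in blue and the CTX-treated libraries in red. The totals run from 24 in CTX 3, the shallowest library, to 41 in PBS 1, the deepest.

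The covered length of all ligand promoters together was 37873 bp in PBS 1, 23471 bp in PBS 2 and 35061 bp in PBS 3, and 15104 bp in CTX 1, 25126 bp in CTX 2 and 11265 bp in CTX 3. CTX 2 was above PBS 2, so the groups overlapped here too. The means were 32135 ± 7634 bp and 17165 ± 7157 bp (SD, n = 3), a CTX to PBS ratio of 0.534. Over all protein-coding genes the ratio was 0.550 (1.44 ± 0.309 Mb against 0.790 ± 0.301 Mb). The ligand genes held 2.23% ± 0.0584 of the protein-coding covered length in PBS libraries and 2.17% ± 0.228 in CTX libraries. The summed called length at the ligand genes was thus shorter in about the proportion seen over all protein-coding genes. The median length per marked gene and the number of marked genes were also compared. A median is not a mean, so these 2 ratios need not multiply to that of the sum. The median per marked ligand gene averaged 838 bp in PBS and 458.5 bp in CTX libraries (ratio 0.547), against 651 and 470 bp at marked protein-coding genes (0.721). The number of marked genes fell less at the ligand genes, with a ratio of 0.819 against 0.725.

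Of the 57 ligand genes, 17 were marked in all 6 libraries (29.8%), against 3.5% of protein-coding genes, and 45 were marked in at least 1 library, against 11.9% of protein-coding genes. The 17 were Wnt2b, Wnt3a, Wnt5a, Wnt7a and Wnt7b, the BMP genes Bmp2, Bmp4, Bmp6, Bmp7, Bmp8a and Bmp8b, the FGF genes Fgf3, Fgf4 and Fgf14, and the antagonists Nog, Chrd and Lefty1. A further 13 genes were marked in 5 libraries and 7 in 4. The 12 genes marked in no library were Wnt4, Wnt5b, Wnt8a, Bmp3, Bmp5, Inhba, Inhbb, Fgf1, Fgf2, Fgf6, Fgf7 and Fgf18. In 10 of these 12 no peak lay anywhere in the gene body either, and Bmp5 and Fgf6 had a gene-body peak in PBS 1 only, of 366 and 200 bp. Of the remaining genes, Wnt8b, Fgf8 and Fgf12 were marked in 1 library, Wnt9b and Fgf11 in 2, and Wnt10a, Fgf10 and Ihh in 3.

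**Figure D2:**
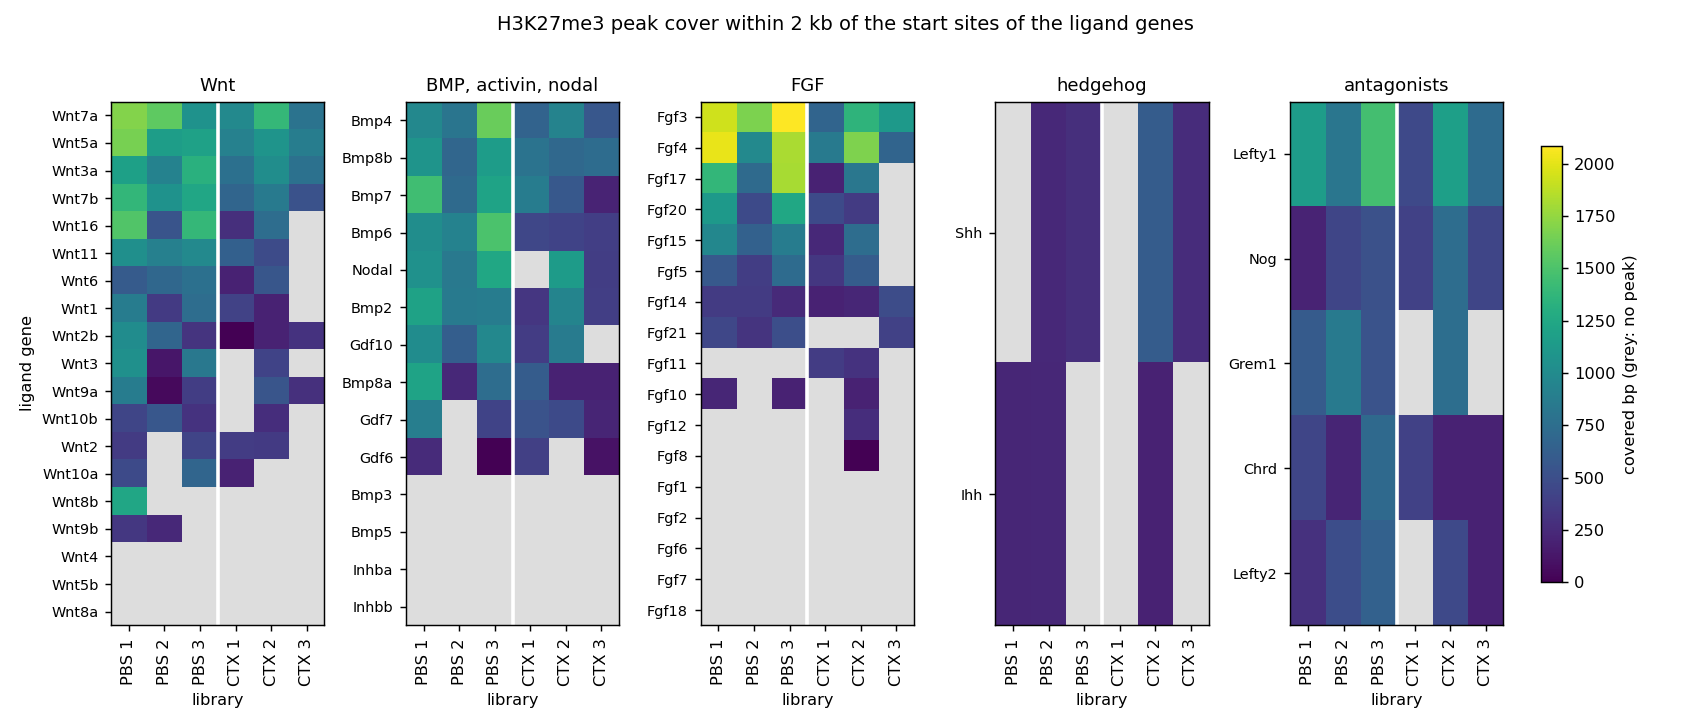
Covered length within 2000 bp of the TSSs (color, bp) for each ligand gene (rows, by family and falling mean) in each of the 6 libraries (columns), with grey where no peak was called. Fgf3 and Fgf4 reach the longest covered lengths, 2087 and 2020 bp, and the rows of Wnt4, Inhba and Inhbb are grey throughout.

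The sequence before the RefSeq start is printed below for the gene with the longest covered length in the Wnt, BMP and FGF families. Those of the unmarked GC products Inhba and Wnt4 are printed with them. Sequences are from the RefSeq promoter table of GRCm38.p6, cut where an annotated untranslated region begins, 5′ to 3′ on the strand of the gene, with each CpG in capitals. Of the 57 ligand genes, 40 had an entry, and Shh and Lefty1 led the other families and are named only. The Wnt7a stretch lies at chr6:91411364-91411603 (minus strand), that of Bmp4 at chr14:46390670-46390919 (minus strand), that of Fgf3 at chr7:144838362-144838594 (plus strand), that of Inhba at chr13:16011601-16011850 (plus strand) and that of Wnt4 at chr4:137277385-137277488 (plus strand). The Bmp4 and Inhba stretches end at the base before the RefSeq start, whereas that of Wnt4 ends 147 bases before it, at the GENCODE start of the gene. The Fgf3 stretch lies before the RefSeq start but inside the GENCODE gene, which begins at chr7:144838083.
Wnt7a before the start: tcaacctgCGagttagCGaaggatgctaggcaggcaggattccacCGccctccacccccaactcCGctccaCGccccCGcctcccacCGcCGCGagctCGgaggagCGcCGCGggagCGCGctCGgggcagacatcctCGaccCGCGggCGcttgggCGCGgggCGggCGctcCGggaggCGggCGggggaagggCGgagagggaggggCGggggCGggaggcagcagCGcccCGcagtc
Bmp4 before the start: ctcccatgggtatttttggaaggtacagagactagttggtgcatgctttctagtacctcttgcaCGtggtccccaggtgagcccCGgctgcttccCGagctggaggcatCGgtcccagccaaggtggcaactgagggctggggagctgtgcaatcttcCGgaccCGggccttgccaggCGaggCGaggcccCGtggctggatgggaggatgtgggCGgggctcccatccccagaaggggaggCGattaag
Fgf3 before the start: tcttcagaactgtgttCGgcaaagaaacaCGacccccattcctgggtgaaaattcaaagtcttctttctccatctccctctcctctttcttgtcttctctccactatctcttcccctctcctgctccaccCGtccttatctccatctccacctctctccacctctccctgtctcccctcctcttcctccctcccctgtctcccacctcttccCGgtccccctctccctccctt
Inhba before the start: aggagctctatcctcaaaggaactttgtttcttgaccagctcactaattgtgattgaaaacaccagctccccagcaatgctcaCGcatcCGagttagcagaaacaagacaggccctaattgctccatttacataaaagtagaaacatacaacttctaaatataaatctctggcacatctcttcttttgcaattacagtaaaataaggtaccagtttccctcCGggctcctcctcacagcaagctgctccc
Wnt4 before the start: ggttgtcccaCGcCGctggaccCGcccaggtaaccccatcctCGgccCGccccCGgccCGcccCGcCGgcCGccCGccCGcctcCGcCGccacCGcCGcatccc

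CpGs numbered 32 in the 240 bases of Wnt7a, 11 in the 250 bases of Bmp4, 4 in the 233 bases of Fgf3, 3 in the 250 bases of Inhba and 16 in the 104 bases of Wnt4. The letters CG, which read the same on both strands, occurred at least once in 92.9% of 16522 protein-coding promoters of 250 bases, with a median of 10, and the 40 ligand promoters had a median of 20.5. These stretches before the RefSeq starts were mostly outside the called peaks even at the marked genes. Wnt7a had 21 covered bases in PBS 2 and none in the other libraries, Bmp4 had none in any, and Fgf3 had 221 in PBS 3 and 200 in CTX 2.

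At these 3 genes the stretch that all 6 libraries covered lay downstream of the RefSeq start instead. Of the 17 genes marked in every library, 12 had at least 1 base in common to the peaks of all 6, from 13 bp at Fgf14 to 728 bp at Wnt3a, and 5 had none (Wnt2b, Bmp2, Bmp6, Bmp8a and Chrd), so that their peaks lay at different places of the window in different libraries. The longest common stretch was 402 bp at Wnt7a (chr6:91410941-91411342), 454 bp at Bmp4 (chr14:46389861-46390314) and 154 bp at Fgf3 (chr7:144839211-144839364). Of each, 150 bases are printed from the GRCm38 genome in the same manner because they are DNA that every library covered at the gene with the longest mean covered length of each family. At Wnt7a they span the end of the coding part of an exon and the intron after it (chr6:91410951-91411100, 41.3% coding). At Bmp4 (chr14:46390008-46390157) and Fgf3 (chr7:144839213-144839362) they are intronic.
Wnt7a common stretch: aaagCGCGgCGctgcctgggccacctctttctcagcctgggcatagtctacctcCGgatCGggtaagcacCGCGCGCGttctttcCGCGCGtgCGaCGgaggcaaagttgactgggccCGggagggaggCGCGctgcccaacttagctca
Bmp4 common stretch: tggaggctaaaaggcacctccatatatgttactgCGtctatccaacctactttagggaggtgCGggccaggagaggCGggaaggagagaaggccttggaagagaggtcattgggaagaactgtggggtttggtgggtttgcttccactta
Fgf3 common stretch: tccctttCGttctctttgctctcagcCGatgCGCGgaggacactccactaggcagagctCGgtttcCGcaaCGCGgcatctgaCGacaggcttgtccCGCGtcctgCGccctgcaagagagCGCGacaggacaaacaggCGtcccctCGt

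These 150 bases held 17 CpGs at Wnt7a, 16 at Fgf3 and 3 at Bmp4. At Fgf3 the intronic stretch was denser in CpG (10.7 per 100 bases) than the stretch before the start (1.72 per 100 bases), and at Bmp4 it was sparser (2 against 4.4).

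Among the GC products the mark separated Bmp2 from the other 3 genes. Wnt4, which acts in ovarian differentiation, and Inhba and Inhbb, which encode the activin beta subunits, had 0 bp covered in each of the 6 libraries. Bmp2, a BMP ligand, was marked in all 6, with 1205, 863 and 874 bp covered in the control group and 327, 943 and 388 bp in the CTX-treated group. CTX 2 lay within the control range and the other CTX-treated libraries below it. The means were 981 ± 194 and 553 ± 339 bp (SD, n = 3, exact permutation p = 0.3). The strongest Bmp2 summit lay 359 to 1312 bp downstream of the TSS, and at Bmp2 the libraries had no covered base in common.

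Wnt genes had some of the strongest peaks of the ligand list. In each library the merged peaks were ranked by their highest −log10 q-value and the rank was given as a percentile, with 100 for the strongest. Wnt3a, which activates beta-catenin signaling, had a −log10 q-value of 38.6, 23.2 and 14.3 in the control group and 13.6, 17.5 and 13.7 in the CTX-treated group, and its mean percentile was 96.6. Wnt7a stood at percentiles of 90.6 to 97.9, Wnt5a, a ligand of noncanonical signaling, at 85.3 to 97.4 and Wnt7b at 82.7 to 94.4. These 4 genes were the Wnt genes with the longest mean covered length. The median percentile over all marked ligand genes averaged 65.9 ± 4.43 in the control libraries and 57.2 ± 8.80 in the CTX-treated libraries (SD). For marked protein-coding genes it averaged 66.0 ± 1.67 and 65.2 ± 1.98, so the ligand list as a whole did not rank above other marked genes.

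Wnt7a had 1696, 1571 and 1062 bp covered in the control group and 982, 1393 and 795 bp in the CTX-treated group. Wnt3a had 1187, 928 and 1322 bp against 770, 1023 and 776 bp. At both genes CTX 2 lay within the control range. Wnt5a had 1662, 1158 and 1197 bp against 915, 1079 and 881 bp, and Wnt7b had 1382, 1064 and 1237 bp against 679, 856 and 525 bp. At these genes every control library was above every CTX-treated library (Wnt5a 1339 ± 280 against 958 ± 106 bp, Wnt7b 1228 ± 159 against 687 ± 166 bp). The same held at 28.5% of the 2295 genes of the genome marked in at least 3 libraries.

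Other Wnt genes had shorter covered lengths and were without a peak in some libraries. Wnt11, known from cell movement in gastrulation and kidney branching, had 1036, 908 and 985 bp in the control group and 643, 477 and 0 bp in the CTX-treated group. Wnt6 had 602, 698 and 770 bp against 200, 559 and 0 bp. Wnt10b, known from hair follicle and bone, had 437, 565 and 302 bp against 0, 271 and 0 bp. The 3 genes did not overlap between the groups, as was so with the control group higher at 28.5% of all genes tested. CTX 3 had no peak at any of the 3. Wnt2b had 1015, 677 and 312 bp against 4, 200 and 306 bp, so that it counted as marked in CTX 1 on 4 bp and PBS 3 was only 6 bp above CTX 3. Wnt8b had 1237 bp in PBS 1 and none elsewhere, and Wnt9b had 339 bp in PBS 1 and 244 bp in PBS 2.

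As a family, Wnt genes were marked in 16, 13 and 14 cases in the control libraries and in 11, 13 and 6 cases in the CTX-treated libraries, or 75.4% and 52.6% of 19. Their summed covered length was 15742, 8890 and 11640 bp against 5456, 8129 and 3575 bp (12091 ± 3448 and 5720 ± 2288 bp). Every control library was above every CTX-treated library, with PBS 2 and CTX 2 closest. Over all protein-coding genes the sums of these libraries overlapped narrowly, at 1.08 Mb in PBS 2 and 1.09 Mb in CTX 2. FGF genes were marked in 9, 8 and 9 and in 8, 11 and 4 cases, or 51.0% and 45.1% of 17. Averaged over the 6 libraries the Wnt share was 16.0 percentage points above the FGF share, but only 4.54 points above it with equal peak numbers and 4.33 points with peaks at a q-value of at most 1e-05.

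In the BMP, activin and nodal family 9 of 14 genes were marked in each CTX-treated library and 10, 8 and 10 in the control libraries, so the count did not differ by more than 2 genes between any libraries although the depths did. Bmp4, a ligand of mesoderm and limb patterning, had 976, 809 and 1609 bp in the control group and 664, 931 and 569 bp in the CTX-treated group, with CTX 2 within the control range. Bmp7, which acts in kidney and eye development, had 1443, 722 and 1214 bp against 880, 576 and 211 bp, and Bmp8b, a BMP with roles in germ cells and brown fat, had 1081, 689 and 1151 bp against 792, 707 and 734 bp. The CTX-treated libraries of Bmp8b lay within a range of 85 bp, 744 ± 43.4 (SD, n = 3).

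Bmp6 was the BMP gene whose groups did not overlap, with the control group higher, as at 28.5% of all genes tested. It had 1027, 923 and 1496 bp in the control group and 443, 416 and 386 bp in the CTX-treated group (1149 ± 305 and 415 ± 28.5 bp). The lowest control library had about double the covered length of the highest CTX-treated library. Nodal, the TGF-beta ligand of the embryonic left-right axis, had 1059, 847 and 1242 bp against 0, 1145 and 379 bp, and CTX 2 stood within the control range while CTX 1 had no peak. Gdf10 had 1013, 624 and 971 bp against 375, 871 and 0 bp.

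Of the FGF genes, Fgf3 and Fgf4, neighbors on chromosome 7 with TSSs 8772 bp apart and known from inner ear and early embryo, had the longest covered lengths of all ligand genes. Fgf3 had 1939, 1678 and 2087 bp in the control group and 670, 1358 and 1120 bp in the CTX-treated group. Its groups did not overlap (1901 ± 207 and 1049 ± 349 bp), with the control group higher, as at 28.5% of all genes tested. Fgf4 had 2020, 985 and 1824 bp against 859, 1686 and 673 bp, and CTX 2 lay within the control range. Fgf15, the third gene of this cluster and a gut-derived regulator of bile acid synthesis, was marked in 5 libraries with 242 to 970 bp. Peaks of these genes did not join into 1 peak in any library.

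Fgf17, a relative of Fgf8, had 1382, 723 and 1817 bp in the control group and 201, 831 and 0 bp in the CTX-treated group, with CTX 2 above PBS 2. Fgf11, an intracellular FGF homologous factor, was the ligand gene whose promoter peaks were found only in CTX-treated libraries in more than 1 case, with 372 bp in CTX 1 and 308 bp in CTX 2. It had none in CTX 3 or the control group. Fgf12 and Fgf14 are of the same subfamily, and Fgf14 was marked in all 6 libraries with 361, 365 and 249 bp against 200, 222 and 488 bp.

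Fgf8, a ligand of limb and midbrain patterning, counted as marked in CTX 2 only, on 5 bp at the edge of the window. Its gene body nevertheless carried peaks in all 6 libraries, of 1021, 566 and 748 bp in the control group and 550, 505 and 215 bp in the CTX-treated group. Wnt3 (441 to 3184 bp), Gdf6 (224 to 1166 bp) and Shh (202 to 1092 bp) also had gene-body peaks in all 6 libraries while their promoter windows were marked in 4. Gdf6 likewise met the rule in PBS 3 on 3 bp only. For these 4 genes, which were picked after their values were seen, the window missed peaks farther inside the gene.

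Both hedgehog genes of the list had short covered lengths and no call that all libraries of a group shared. Shh, the hedgehog ligand of neural tube and limb, had 0, 243 and 278 bp in the control group and 0, 606 and 262 bp in the CTX-treated group. Ihh, known from growth plate cartilage, had 226, 233 and 0 bp against 0, 200 and 0 bp. The groups overlapped at both genes (exact permutation p = 0.7 for Shh and 0.4 for Ihh). The Shh difference of 116 bp toward the CTX-treated group turned to -42.7 bp without CTX 2.

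The antagonists were the most often marked family, with all 5 marked in every control library and 3, 5 and 4 marked in CTX 1, CTX 2 and CTX 3. Nog encodes noggin, which binds BMPs outside the cell, and had 211, 435 and 521 bp in the control group and 403, 744 and 437 bp in the CTX-treated group. Chrd encodes chordin, another BMP-binding protein, and had 437, 219 and 715 bp against 403, 200 and 200 bp. Grem1, the BMP antagonist gremlin, had 596, 859 and 531 bp against 0, 755 and 0 bp. The nodal inhibitors Lefty1 (1154, 821 and 1461 bp against 464, 1178 and 732 bp) and Lefty2 (301, 496 and 648 bp against 0, 460 and 200 bp) likewise overlapped between the groups. Groups that did not overlap in covered length were found at 0 of the 5 antagonists, against 28.5% of all genes tested with the control group higher.

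Set gene by gene, the design asks whether a ligand lost or gained H3K27me3 after CTX treatment. No ligand gene was lost, meaning marked in all 3 control and no CTX-treated library (0 of the 45 genes marked anywhere), while 3.17% of all genes marked anywhere were. None was gained (0 of 45), and the share over all genes was 0%. The ligand genes nearest to a loss were Wnt3, Wnt10b, Fgf21 and Grem1, marked in 3 control libraries and 1 CTX-treated library each, which was CTX 3 for Fgf21 and CTX 2 for the others. Without CTX 2 the count of lost genes was therefore 3, without CTX 3 it was 1 (Fgf21) and without PBS 3 it was 1 (Wnt9b). A further 12 ligand genes were marked in 3 control and 2 CTX-treated libraries. Without CTX 3, Fgf11 counted as gained. The shares of all genes lost or gained are not given with a library left out, so these counts cannot be set against 3.17% and 0%.

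Covered length was compared in the 40 ligand genes marked in at least 3 libraries. The groups did not overlap, with the control group higher, in 8 of them (20%), namely Fgf3, Bmp6, Wnt11, Wnt7b, Wnt2b, Wnt6, Wnt5a and Wnt10b, against 28.5% of 2295 genes tested in the same way. In no ligand gene (0 of 40) was the CTX-treated group higher without overlap, against 0.349% of all genes. The two-sided exact permutation test cannot go below p = 0.1 with 3 against 3 libraries, and the 8 genes had this p and an adjusted p of 0.346 (Benjamini-Hochberg over the 2295 genes). None of these differences passed the test. The mean was lower in the CTX-treated group at 37 of the 40 genes (92.5%), and at 92.5% of all genes tested, with median differences of -391.8 and -310.3 bp. The 3 ligand genes with a higher CTX mean were Gdf6, Shh and Nog. With 1 library left out fewer libraries have to be separated, and the count was 24 without PBS 2, 13 without CTX 1 and 23 without CTX 2. The share over all genes is not given with a library left out, so these counts cannot be set against the 28.5%.

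Pileup, the number of extended reads over a summit, was used as a measure that can be scaled to depth. It was recovered from the deposited values and given per 1000 reads per Mb. The highest value of any merged peak overlapping the window was taken, so the summit can lie outside the window. At Wnt2b in CTX 1 the strongest summit lay 2167 bp from the nearest TSS. Among the 17 ligand genes marked in all libraries, Wnt3a had the highest mean, and its scaled pileup was 70.5, 62.5 and 52.1 for the controls and 45.4, 49.1 and 50.1 in the CTX-treated group. At Wnt7b it was 58.8, 58.2 and 64.0 against 47.5, 45.4 and 44.7. At Bmp7 it was 31.7, 32.0 and 34.5 against 23.0, 25.8 and 24.1. All control libraries were above all CTX-treated libraries at these genes, by a wide gap at Wnt7b and Bmp7 and a narrow one at Wnt3a.

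Scaled pileup also did not overlap, with the control group higher, at Wnt5a, Bmp2, Bmp4, Fgf3 and Chrd, which made 8 of 17 ligand genes (47.1%) against 37.6% of the 1064 genes marked in 6 libraries. The CTX-treated group was higher without overlap at none of the 17, against 1.32% of all genes. The largest log2 difference was at Bmp2, with -0.53 on the log2 scale (18.7 ± 1.75 against 12.9 ± 2.08), followed by Wnt5a with -0.49 and Bmp4 with -0.45. Wnt7a (-0.11) and Wnt2b (-0.04) were within the spread of their libraries, and Fgf14 was the gene with a higher CTX mean (0.04). The median over the 17 genes was -0.33, with 16 below 0, and over the 1064 genes it was -0.28. Each of the 8 genes had the smallest exact permutation p of 0.1, and an adjusted p of 0.257 over the 1064 genes. Unscaled pileup gave a median of -0.54. Whether the shared shift comes from the mark or from the enrichment of the libraries cannot be told apart, since no external standard was used.

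**Figure D3:**
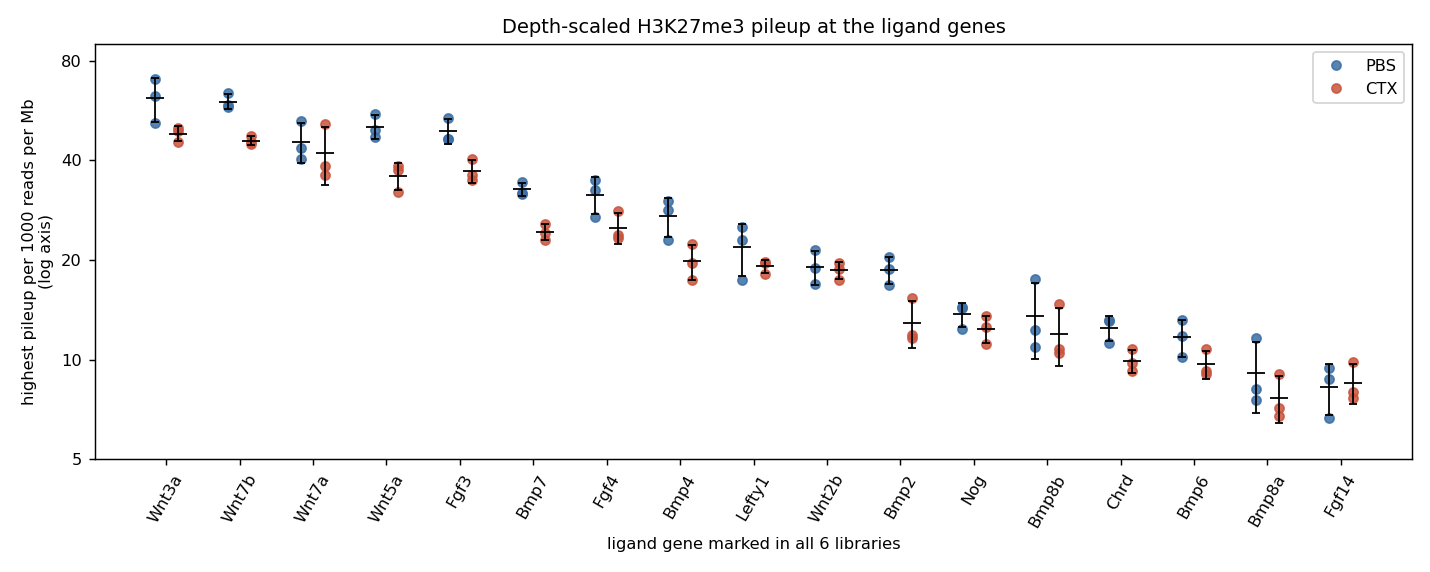
Highest scaled pileup (y axis, log scale, extended reads per 1000 reads per Mb) of the merged peaks that overlap the promoter window, for the 17 ligand genes marked in all 6 libraries (x axis). Points are libraries, blue for control and red for CTX-treated, and black marks are means ± SD (n = 3). At Wnt7b, Bmp7 and Bmp2 the red points all lie below the blue ones, while at Fgf14 and Wnt2b the groups intermingle.

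The peaks at ligand genes lay mostly inside the genes. Within 2000 bp of the 5′ end, 74.8%, 82.2% and 76.4% of the covered length was downstream of it in the control libraries and 82.7%, 72.0% and 71.7% in the CTX-treated libraries. Over all marked protein-coding genes the share was 71.1% ± 0.401 and 71.9% ± 1.26. The strongest summit was downstream of the nearest TSS in 60% to 69.2% of the marked ligand genes. Of the 17 genes marked in all libraries, 10 had it downstream of the nearest TSS in every library and 2 (Wnt5a and Wnt7b) upstream. Both of these genes have 6 annotated TSSs, so upstream of the nearest TSS need not be upstream of the gene. Their longest common stretches (chr14:28509881-28510106 at Wnt5a and chr15:85578047-85578347 at Wnt7b) lay inside the genes. Over the 17 genes the place of the strongest summit varied by a median of 557 bp between libraries.

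Wnt7a and Nog were the genes whose summit kept its place most closely. The Wnt7a summit lay at 683, 692 and 673 bp downstream of the nearest TSS in the control group and at 678, 672 and 683 bp in the CTX-treated group, a range of 20 bp. At Nog it lay at 894, 917, 887, 882, 911 and 953 bp. Relative to the nearest TSS the Wnt5a summit lay at -1061, -1067, -685, -1062, -1082 and -1069 bp, that is upstream of that TSS. PBS 3 stood apart from the other libraries.

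**Figure D4:**
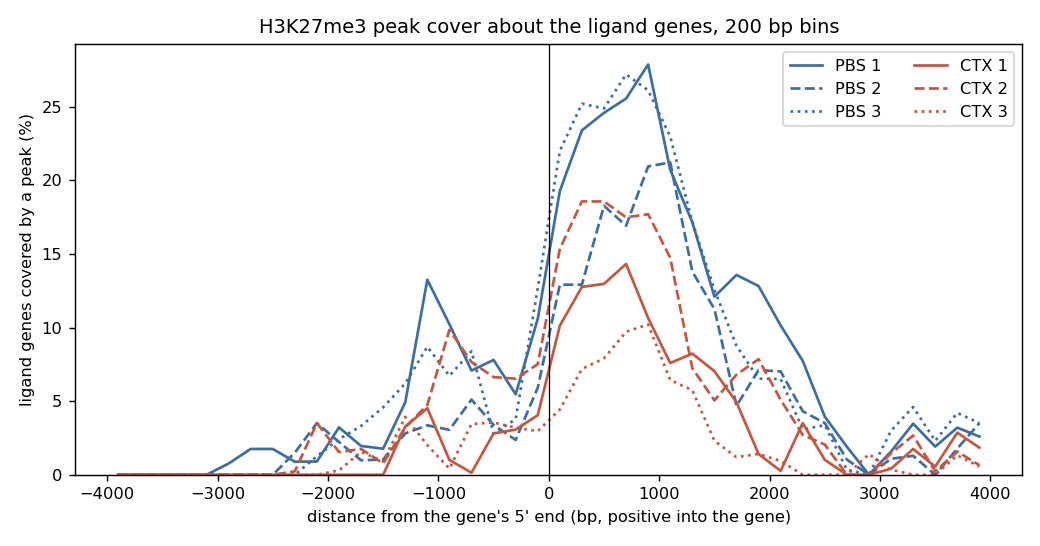
Share of the 57 ligand genes covered by a peak (y axis, percent) in bins of 200 bp by distance from the 5′ end of the gene (x axis, bp, positive into the gene), 1 line per library, blue for control and red for CTX-treated. All lines are highest in bins centered 300 to 1100 bp into the gene, with maxima from 10.2% in CTX 3 to 27.9% in PBS 1.

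Marked ligand promoters were denser in CpG than unmarked ones, with exceptions among the GC products. The median density within 2000 bp of the TSSs was 38.5 CpG per kb in the 17 genes marked in all libraries, 33.0 in the 28 marked in 1 to 5 and 16.6 in the 12 marked in none. Over protein-coding genes it was 16.7, and 26.7 in those marked in 6 libraries. Inhbb had the densest promoter of all ligand genes at 75.7 CpG per kb, and Wnt4 with 54.2 and Fgf18 with 48.0 were denser than the median of the marked genes, although none of the 3 was marked. Inhba, at 13.7, was below the protein-coding median. Fgf14 (18.4) and Lefty1 (19.1) were the sparsest of the 17. The groups of genes were formed by the number of libraries marked, so these medians are a description.

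**Figure D5:**
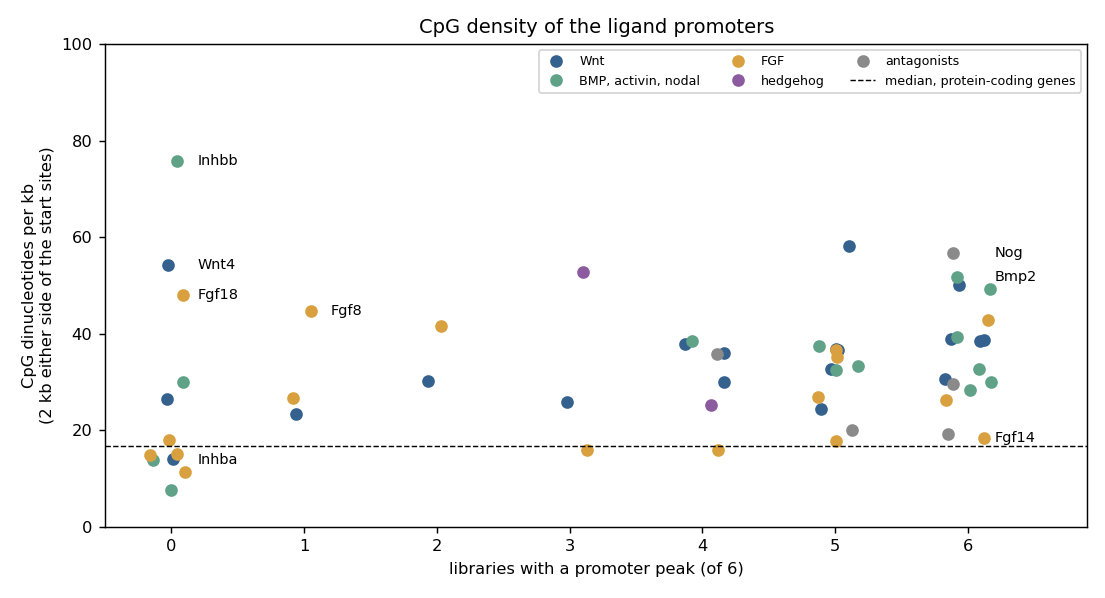
CpG dinucleotides per kb within 2000 bp of the TSSs (y axis) against the number of libraries with a promoter peak (x axis, 0 to 6, points spread sideways), 1 point per ligand gene, colored by family. The dashed line is the median of protein-coding genes, 16.7. Inhbb, Wnt4 and Fgf18 stand high among the genes with no peak.

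Genes that receive or modify these signals were also examined. Of 35 receptor genes 4 were marked in all 6 libraries, the Frizzled receptors Fzd9 and Fzd10, the Wnt co-receptor Ror2 and the FGF receptor Fgfr3, and 28 were marked in none. Of 27 inhibitor genes 3 were marked in all 6, the Wnt inhibitors Dkk1, Dkk2 and Sfrp5, and 15 in none. A last list of 28 genes held targets, transducers and the R-spondin genes, with 6 marked in all 6 libraries and 16 in none. The 6 were the R-spondin genes Rspo1, Rspo2, Rspo3 and Rspo4, their receptor Lgr5 and the BMP target Id3. The shares marked in all 6 libraries were 11.4% of receptor genes, 11.1% of inhibitor genes and 21.4% of the last list, against 3.5% of protein-coding genes. For the counts marked in none, the share over protein-coding genes was 88.1%. Covered length did not overlap, with the control group higher, at 2 of the 7 receptor genes tested (Fzd2 and Fzd9). The same held at 2 of the 8 inhibitor genes (Dkk2 and Sfrp1) and 2 of the 8 genes of the last list (Lgr5 and Gli1). These shares were near the 28.5% of all genes tested, and no gene of these lists had the CTX-treated group higher without overlap. The transcription factor gene Gli1, a hedgehog target, was the lost gene among them (3.17% of all genes marked anywhere were lost), with 420, 397 and 595 bp in the control group and 0 bp in each CTX-treated library.

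Some ligand windows are shared with other genes. The windows of Fgf20, Fgf21 and Chrd also hold a TSS of the protein-coding genes Micu3, Fut1 and Thpo, so a peak there belongs to neither gene alone. Neighboring ligand genes (Wnt1 and Wnt10b, 11707 bp apart, Wnt3a and Wnt9a, 16176 bp, Wnt3 and Wnt9b, 24329 bp, Wnt6 and Wnt10a, 9077 bp, Lefty1 and Lefty2, 40564 bp) never shared a merged peak. Of these pairs, Wnt3a and Wnt9a and also Lefty1 and Lefty2 were both marked in 5 libraries, Wnt1 and Wnt10b in 4, Wnt6 and Wnt10a in 3 and Wnt3 and Wnt9b in 2.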

How the data were processed

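Peak lists of an anti-H3K27me3 CUT&Tag experiment on GCs, 3 control and 3 CTX-treated libraries, were analysed. Per the study's methods the authors aligned reads with BWA to mm10, discarded multi-mapping and duplicate reads, and ran MACS2 2.1.0 on each library by itself with a q-value limit of 0.05 and narrow peaks. The use of a control library is not given in the sources used here. The lists deposited by the authors give for each summit a MACS2 score, a fold enrichment over local background (a ratio), and the −log10 p-value and −log10 q-value. They hold no read counts.

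Overlapping or adjoining intervals were first merged within each library. TSSs were taken from GENCODE M21 on GRCm38 (141862 transcripts). Pileup and depth were solved from the fold enrichment and the −log10 p-value at each summit, assuming reads extended to 200 bp and a background taken from the library itself with no control library, for at least 99.7% of summits per library, and the recovery was tested on simulated data. Every depth and scaled pileup given rests on that assumption. Pileup rests on few reads (7 to 138 at the ligand genes), so counting error limits weak genes. Covered length and scaled pileup were compared per gene by two-sided exact permutation tests of 3 against 3 libraries, with Benjamini-Hochberg adjustment over all genes tested. Counts, medians and shares over the ligand genes are descriptions with no p-value.

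Genes with full values were the 4 GC products, the 3 genes with the longest mean covered length in each large family, the hedgehog genes, the antagonists and every gene lost, gained or not overlapping in covered length. Others, among them Nodal, Gdf10, Fgf8, Fgf11, Fgf14, Wnt8b and Wnt9b, were given values after these were seen, and the alternatives were not run on them gene by gene. The ligand genes and the other lists were chosen with earlier results of these data known. The alternatives were a 1000 bp window, the summit in the window, a q-value of at most 1e-05, equal peak numbers, TSSs of protein-coding transcripts, peaks within 1000 bp joined, each library left out, replicate numbers as a block and unscaled pileup. Same-numbered libraries did not deviate together (correlations -0.0642, -0.265 and -0.0697 over 2295 genes), so the numbers were not taken as pairs. Analyses used Python 3.11.15, NumPy 2.4.6, pandas 2.3.3 and SciPy 1.17.1.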

Additional observations from a re-analysis of the deposited data

How the results depend on the processing

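Most summaries kept their direction under the alternatives. With equal peak numbers the difference in marked ligand genes turned to 1 more in the CTX-treated group and the difference in covered length was -6548 bp in place of -14970 bp. Leaving out single libraries gave -11.2 to -3.17 genes and -19302 to -12020 bp. The count of genes not overlapping with the control group higher was 3 when peaks had to reach a q-value of 1e-05 and 5 when peak numbers were equal, in place of 8, and 9 to 24 with 1 library left out, when fewer libraries have to be separated. With the replicate numbers as a block, where the count is of genes lower in all 3 same-numbered pairs, it was 17, but the libraries share only a number. Lost genes numbered 1 (Bmp4) at the same q-value and 0 to 3 with 1 library left out, and gained genes 0 to 1. The shares over all genes are not given under these alternatives, so whether these counts are particular to the ligand genes was not tested. The median log2 difference was -0.54 without scaling to depth and -0.36 to -0.21 with 1 library left out. The Wnt share minus the FGF share was 4.33 points at the stricter q-value and 4.54 with equal peak numbers, in place of 16.0.

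Of 299 values of covered length at 23 genes under these alternatives, 290 kept their direction. The difference was 0 bp at Grem1 at the stricter q-value. It reversed at Grem1 (111 bp) and Lefty1 (66.3 bp) with equal peak numbers, at Nog (-78 bp), Shh (-81 bp), Wnt5a (48 bp) and Wnt6 (66.7 bp) at the stricter q-value, at Wnt6 (22 bp) with the 1000 bp window and at Shh without CTX 2, where the range over libraries left out was -42.7 to 260 bp. The causes were not tested. A missing peak can be a marked promoter below the calling threshold of a shallow library, so absence in CTX 3 was not read as absence of the mark.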
